A study of Saccharomyces cerevisiae with 8 samples.

Results

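The genes described here are 40 of the 6697 genes with a coding sequence (CDS) in the count table of budding yeast. They are the listed genes of sulfate assimilation and of methionine, cysteine and S-adenosylmethionine (SAM) metabolism, with their transporters and regulators, and they were listed by gene identifier. All 40 passed the filter on low counts and all 40 are accounted for below. Strain BY4741 of *Saccharomyces cerevisiae* was profiled by RNA-seq of total RNA after removal of ribosomal RNA, in 8 libraries, with 1 library per condition and so no replicates. In 7 cultures, LiCl and cycloheximide were combined in YPD at changing ratios along a growth isobole, a line of mixtures that all inhibited growth by 50%. Point 1 held cycloheximide only, points 2 to 6 held mixtures, and point 7 held LiCl only. The eighth culture grew in YPD with no drug. LiCl imposes cationic and osmotic stress, and cycloheximide blocks translation elongation at the large ribosomal subunit. Drug-free wells were seeded with fewer cells than drug-containing wells, so drug, growth rate and inoculum cannot be told apart when no drug is set against any isobole point. Growth inhibition was matched among the isobole points themselves.

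Yeast takes up sulfate, activates it, reduces it to sulfide and joins the sulfide to a carbon backbone made from aspartate, which gives homocysteine. Homocysteine is methylated to methionine, methionine is activated to SAM, the methyl donor of the cell, or homocysteine is turned into cysteine and glutathione. The genes are best known for shared control by the activator Met4, which has no DNA binding of its own and reaches promoters with Cbf1, Met28, Met31 and Met32, while the ubiquitin ligase subunit Met30 restrains Met4 when sulfur compounds are plentiful. BY4741 is a laboratory strain that lacks MET17, the gene of the enzyme that joins sulfide to O-acetylhomoserine, so the strain depends on organic sulfur in the medium, and all 8 cultures shared this deletion. In the files, MET17 had 0 counts in 7 libraries and 2 counts in LiCl only.

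CDS counts per library ranged from 13693401 to 28042336, and the 10 most abundant genes held between 12.7% and 15.1% of them. Levels are given as counts per 1000000 counts (CPM) scaled by the trimmed mean of M values (TMM) over all 8 libraries. All 40 genes had the coordinates of RefSeq build R64 and none was in the intron or 5′ UTR intron tables. Reads were counted without strand and at every location they matched. MET28 overlapped the opposite-strand gene YIR017W-A over 98.2% of its length and MET2 overlapped YNL276C over 25.9%, and reads within these overlaps cannot be told apart. Of the stretches of 50 bases in each gene, 1.8% in SAM1, 1.8% in SAM2 and 19.9% in SAM4 occurred more than once in the genome. The other 37 members had none.

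The upstream sequences of the members are shown first, because Cbf1, Met31 and Met32 have well known binding motifs. In the windows from 250 bases before to 50 bases after each gene start, on either strand, the Cbf1 E-box CACGTG was present for 11 of 40 members (27.5%) and for 174 of 5988 genes overall (2.91%). The Met31 and Met32 motif AAACTGTGG was present for 6 members (15.0%) and for 25 genes overall (0.418%), and the Gcn4 motif TGACTC for 9 members (22.5%) and 479 genes overall (8.0%). No motif is contained in another. When the window was lengthened to 500 bases before the start, a choice made after the shorter window had been counted, the shares were 57.5% of members against 6.41% of genes for CACGTG, 30% against 0.869% for AAACTGTGG and 37.5% against 14.3% for TGACTC. A match is a match of letters and was not tested as a binding site.

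The E-boxes below stand upstream of 5 genes whose level was over 2-fold higher in no drug than in all 7 isobole libraries. Each is a window of 30 bases of RefSeq build R64, read 5′ to 3′ on the strand of its gene, with CACGTG in capitals. The windows lie at chrX:455850-455879 for MET3 on the plus strand, chrXI:439596-439625 for MET14 on the minus strand, chrXI:571332-571361 for MET1 on the plus strand, chrXIV:116984-117013 for MET2 on the plus strand and chrIX:384321-384350 for MET28 on the minus strand. The matches began 377, 228, 268, 353 and 219 bases upstream of the gene start. These 5 genes were picked from the 23 members with CACGTG within 500 bases. Of those 23, MET4 and CBF1 were lowest in no drug, and CYS4 and MET30 lay inside the isobole range. CACGTG was found within 250 bases for 29.4% of the 17 members with such a 2-fold gap and 26.1% of the others. Within 500 bases the shares were 76.5% and 43.5%.
MET3: agaaaaaaaggtCACGTGaccagaaaagtc
MET14: tgccactaatttCACGTGatcaatatattt
MET1: aatgccattatgCACGTGacattacaaatt
MET2: ttgacgtattttCACGTGatgcgcctcact
MET28: gggtactgagtgCACGTGacttattttttt

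The next windows hold the Met31 and Met32 motif upstream of 4 genes that were lower in LiCl only than in no drug by more than 8-fold. Capitals mark AAACTGTGG or, where it lies on the other strand, its reverse complement CCACAGTTT. They lie at chrV:342455-342484 for MET6 on the minus strand, chrIV:1454745-1454774 for SAM2 on the minus strand, chrXII:17773-17802 for MHT1 on the minus strand and chrVII:598943-598972 for MUP1 on the plus strand. The MHT1 window holds the same match as the window of its divergent neighbour MMP1 at chrXII:17774-17803, so these 2 genes share the site. The 4 genes were picked from the 12 members that held this motif within 500 bases. Of the rest, MET28 was also past 8-fold, at 9.31-fold lower in LiCl only than in no drug. MET3, CYS4, SAM1, MUP3, MMP1 and MET32 were between 2.49-fold and 6.17-fold lower. MET30 was 1.33-fold higher. Among the 4, only the MHT1 match lies within 250 bases.
MET6: cccggtcgcaAAACTGTGGtagtcatagct
SAM2: ttgagcttgaAAACTGTGGcgtttttccac
MHT1: ggaaaagtaaAAACTGTGGcatgaaagtac
MUP1: gcatccgccaCCACAGTTTtttttagcgtc

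STR3, the member that stood farthest from no drug, matched neither motif in the window of 500 bases. It held TGACTC at 389 and 379 bases upstream, shown at chrVII:156384-156413 on the minus strand with the distal copy in capitals.
STR3: tggttatccggcTGACTCattctgactctt

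**Figure D1:**
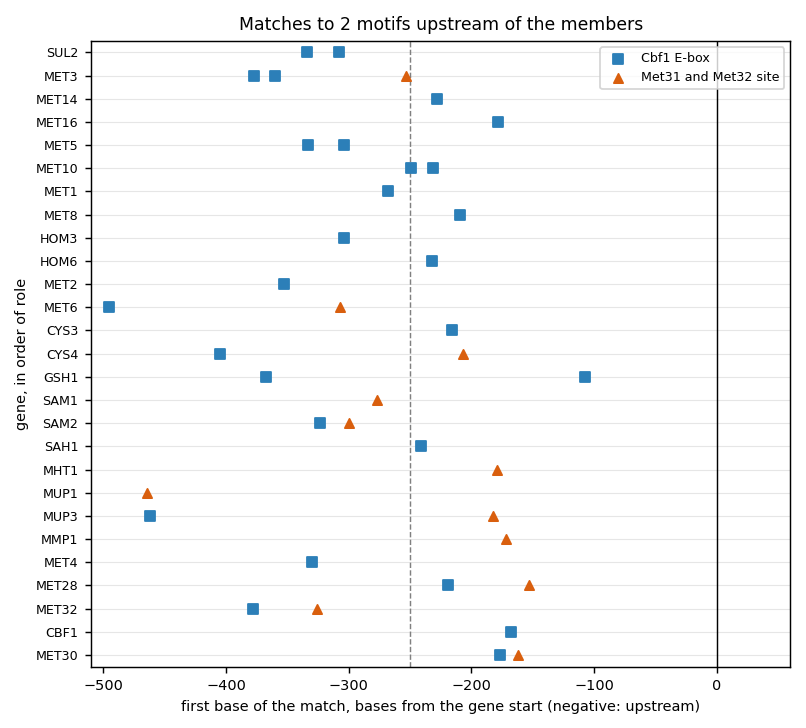
Distance in bases from the gene start (x axis) of each match to CACGTG (squares) and AAACTGTGG (triangles), in the window of 500 bases before to 50 after the start, for the 27 members with a match to either motif (y axis, in order of role). The dashed line marks the limit of the 250-base window. CACGTG was found for 11 members within that limit and for 23 within 500 bases.

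Most of the members were higher in no drug than at any point of the isobole. The no drug level lay above all 7 isobole levels for 29 of 40 members (72.5%), against 24.6% of the 6498 genes tested, and below all 7 for JLP1, MET4, MET31 and CBF1, against 29.4% of genes. It lay within the isobole range for the other 7 members. With library totals in place of TMM, 24 members lay above and 5 below, against 9.11% and 47.8% of genes, since HOM3, HOM6, MET12, SAH1 and YCT1 moved into the isobole range and MET7 below it. A gap of over 2-fold between no drug and the highest isobole library was found for 17 members (42.5%), against 0.677% of genes, a cutoff added after the values had been seen, and for 14 members with library totals, against 0.385% of genes. The members were 38.6% of the 44 genes past that gap, and STR3 headed them. Summed over the 40 members, the TMM-scaled level was 6750 CPM in no drug and 3790, 3470, 3170, 3060, 2470, 2520 and 2070 CPM at points 1 to 7. As a share of raw CDS counts, which amounts to scaling by library totals, the members took 0.221% in LiCl only, 0.399% in cycloheximide only and 0.577% in no drug.

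**Figure D2:**
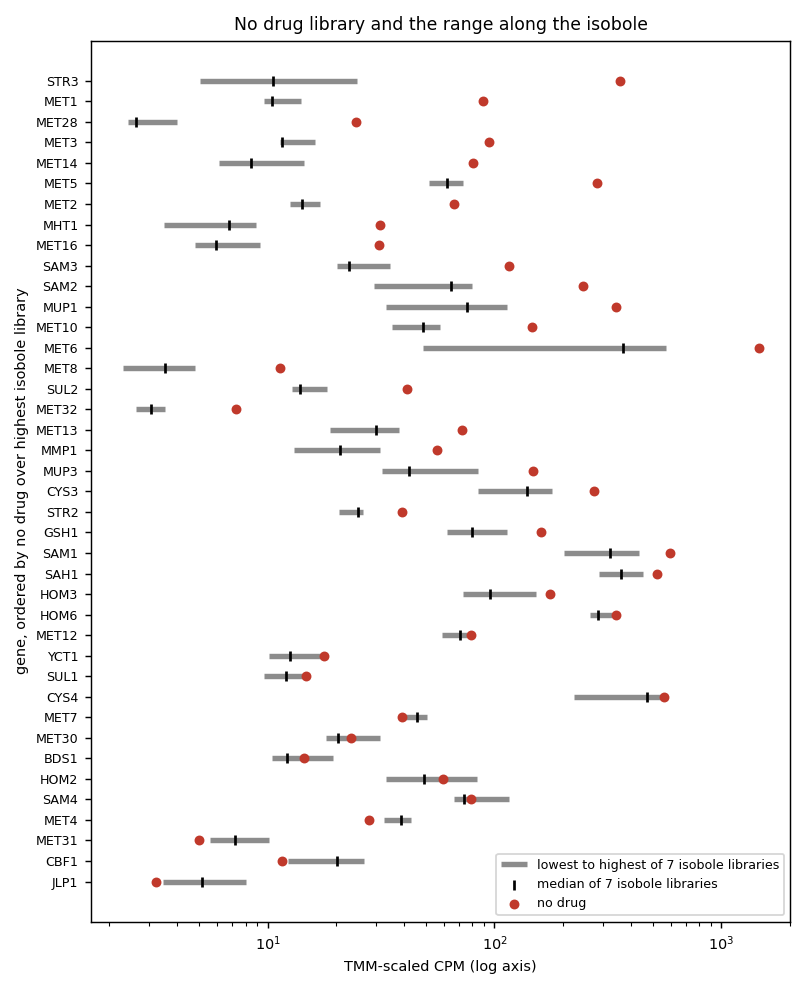
TMM-scaled CPM (x axis, log scale) of the 40 members (y axis, ordered by the ratio of no drug to the highest isobole library). Grey bars run from the lowest to the highest of the 7 isobole libraries, ticks mark their median and red points the no drug library. The red point lies to the right of the bar for 29 members and to the left for 4.

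Compared with no drug, 23 members (57.5%) were lower in LiCl only by more than 2-fold, against 6.43% of all genes tested, and 1 member, MET31, was higher by more than 2-fold, against 11.6% of genes. The median log2 difference, LiCl only minus no drug, was -1.34 over the members and 0.022 over all genes. In cycloheximide only, 18 members (45%) were lower than in no drug by more than 2-fold, against 2.14% of genes, and 0 were higher, against 5.83% of genes. The median log2 difference, cycloheximide only minus no drug, was -0.87 over the members and 0.044 over all genes. These comparisons share the no drug library, so they are not independent of each other. All 18 members past 2-fold in cycloheximide only were also past it in LiCl only. The 5 others in LiCl only were MET13, CYS3, CYS4, SAM1 and MUP3. This overlap was not counted over all genes, so it is not known to be particular to the members. Of the 15 genes that were more than 4-fold lower in cycloheximide only, 7 were members (46.7%), and of the 52 such genes in LiCl only, 13 were members (25%). Each of these folds compares single libraries and has no replicate check, and their standard errors (SE) below come from the counts alone. In bulk RNA, fewer transcripts in every cell and transcripts in fewer cells cannot be told apart.

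**Figure D3:**
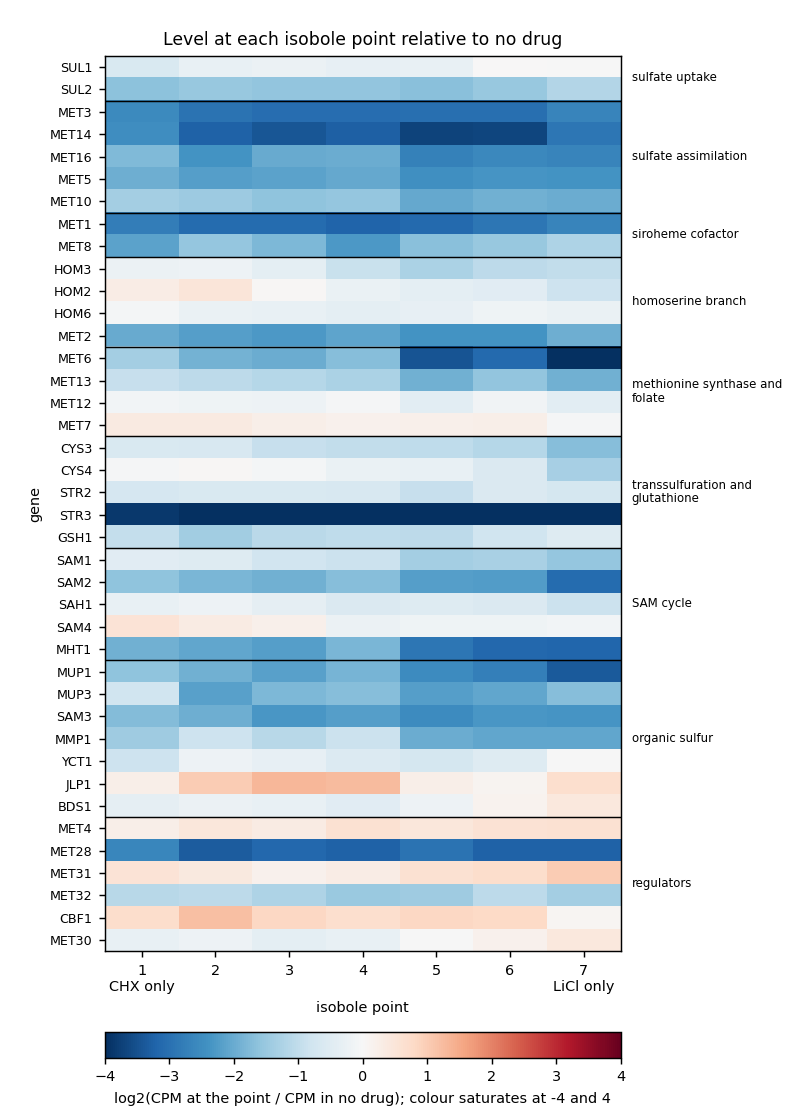
The log2 ratio of TMM-scaled CPM at each isobole point to that in no drug (colour, saturating at -4 and 4) for the 40 members (rows, grouped by role) at points 1 to 7 (columns). Sulfate assimilation and siroheme genes are blue at all 7 points, MET6 and STR3 reach the darkest blue, and MET4, MET31 and CBF1 are pale red.

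Along the isobole, where growth inhibition was the same, the test was a regression of the counts on the point number in edgeR. The slope is the log2 change per point, and a negative slope means that the level fell from cycloheximide only towards LiCl only. At an edgeR quasi-likelihood, Benjamini-Hochberg adjusted p under 0.05 over all 6498 genes, 17 members (42.5%) fell, against 15.1% of genes, and 3 members, SUL1, BDS1 and MET30, rose, against 16.5% of genes. The median slope was -0.073 over the members and 0.0046 over all genes. Leaving out each library in turn gave between 13 and 18 falling members and between 0 and 4 rising members. Without LiCl only, 13 members fell and 0 rose, while the counts over all genes went from 982 to 486 falling and from 1069 to 351 rising. Without point 6, 15 members fell and 1 rose, with 747 and 749 genes overall. The calls of 9 members, MET10, HOM3, HOM2, MET6, MET13, CYS3, CYS4, SAM1 and MUP1, held in every such fit. Those of the other 11 were lost in at least 1. How many calls over all genes held in every such fit was not counted, so the 9 have no background share. With the 5 mixtures only, all 20 calls were lost, and 15 genes overall fell and 0 rose. All 20 slopes kept their sign there, for example MET6 at -0.38 (edgeR adjusted p = 0.16), HOM3 at -0.25 (0.0733) and SAM1 at -0.21 (0.0662).

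**Figure D4:**
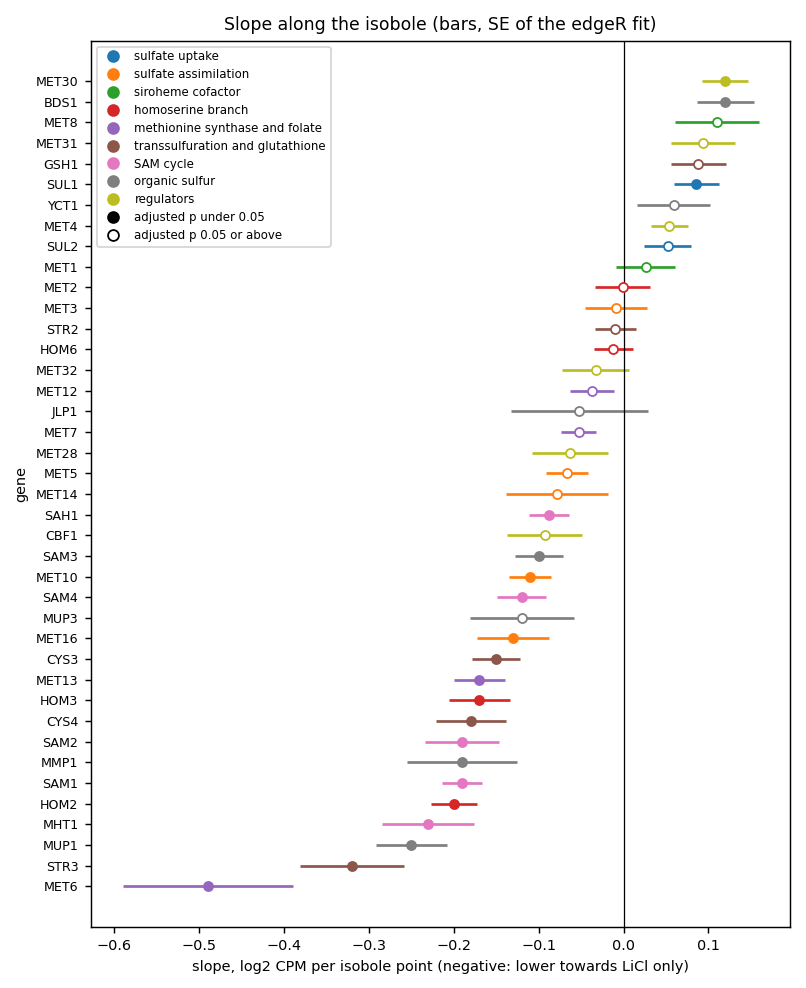
Slope in log2 CPM per isobole point (x axis) with its SE from the edgeR fit (bars) for the 40 members (y axis), coloured by role. Filled points have an adjusted p under 0.05. MET6 and STR3 have the steepest falls, at -0.49 and -0.32, and MET30 and BDS1 rise at 0.12.

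Sulfate uptake was split between its 2 permeases. SUL2 (YLR092W) was higher in no drug, at 41.1 CPM, than in all 7 isobole libraries, which ranged from 12.8 to 18.2 CPM. SUL1 (YBR294W) was read at 14.8 CPM in no drug and at 9.66, 12.1, 12.5, 11.7, 12, 15.1 and 14.5 CPM at points 1 to 7. No drug thus lay inside the SUL1 range, near its top. SUL1 rose along the isobole by 0.086 per point (SE 0.0269, edgeR adjusted p = 0.036), a call lost without point 1, 3, 6 or 7 (adjusted p between 0.0566 and 0.181).

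The 5 enzymes that turn sulfate into sulfide were all lower at every isobole point than in no drug. MET3 (YJR010W) at chrX:456239-457774 encodes ATP sulfurylase, which activates sulfate, and was read at 94.4 CPM in no drug and at 16.1, 12.2, 11.3, 11.5, 11.6, 11.6 and 15.3 CPM at points 1 to 7. MET14 (YKL001C) encodes the kinase of the next step and was read at 80.7 CPM in no drug and at 14.5, 8.51, 7.59, 8.42, 6.13, 6.27 and 10.9 CPM. In both genes the single compounds gave higher levels than the mixtures, and the lowest MET14 level, at point 5, rested on 99 counts. MET14 was 7.40-fold lower in LiCl only than in no drug (log2 -2.89, counting SE 0.0914) and 5.55-fold lower in cycloheximide only (log2 -2.47, counting SE 0.0881). MET3 was 6.17-fold and 5.86-fold lower in the same comparisons, with counting SEs of 0.079 and 0.0831 on the log2 scale. Neither slope along the isobole passed the threshold, at -0.0092 for MET3 (edgeR adjusted p = 0.868) and -0.078 for MET14 (edgeR adjusted p = 0.34).

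MET16 (YPR167C), the reductase that yields sulfite, was read at 31.1 CPM in no drug and at 9.22, 5.94, 7.64, 7.78, 4.77, 5.25 and 4.98 CPM at points 1 to 7. The sulfite reductase subunit MET5 (YJR137C) gave 282 CPM in no drug and 72.5, 61.6, 63.6, 68.5, 51.2, 55.2 and 53.7 CPM along the isobole. MET10 (YFR030W), the other subunit, gave 147 CPM in no drug and 57.3, 53.4, 48.4, 50.4, 35.5, 38.6 and 37.5 CPM. In all 3, points 5 to 7 lay below points 1 to 4, and no drug stood clear of the whole range. MET10 fell with a slope of -0.11 (SE 0.0246, edgeR adjusted p = 0.00921) and MET16 with a slope of -0.13 (SE 0.0421, edgeR adjusted p = 0.0361). The MET16 call was lost without point 1, 3, 5, 6 or 7 (adjusted p between 0.0547 and 0.182) and with library totals in place of TMM (adjusted p = 0.0599), and the MET5 slope of -0.067 missed the threshold (edgeR adjusted p = 0.063). Against no drug, MET16 was 6.24-fold lower in LiCl only and 3.37-fold lower in cycloheximide only, MET5 was 5.25-fold and 3.89-fold lower, and MET10 was 3.92-fold and 2.56-fold lower.

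Siroheme is the cofactor of sulfite reductase, and both enzymes that make it stood apart from no drug. MET1 (YKR069W) at chrXI:571612-573393, a methyltransferase, was read at 88.7 CPM in no drug and at 13.1, 10.5, 10.5, 9.63, 10.3, 11.9 and 14.1 CPM at points 1 to 7. MET8 (YBR213W), which completes the cofactor, was read at 11.3 CPM in no drug and at 2.59, 3.89, 3.23, 2.30, 3.53, 3.97 and 4.78 CPM. MET1 was close to level along the isobole, while MET8 was highest at LiCl only and rested on 36 to 143 counts per isobole library. These were 2 of the 7 members past 4-fold in cycloheximide only, where MET1 was 6.79-fold lower than in no drug (log2 -2.76, counting SE 0.0907) and MET8 4.35-fold lower (log2 -2.12, counting SE 0.215). In LiCl only the corresponding values were 6.27-fold for MET1 and 2.37-fold for MET8. Neither slope passed the threshold (edgeR adjusted p = 0.592 for MET1 and 0.11 for MET8).

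The branch from aspartate to O-acetylhomoserine supplies the carbon acceptor of sulfide, and its last enzyme was the 1 of the 4 that was past 2-fold against no drug in LiCl only and in cycloheximide only. MET2 (YNL277W), the homoserine acetyltransferase, was read at 66.0 CPM in no drug and at 16.2, 14.2, 13.3, 15.3, 12.5, 12.7 and 17.0 CPM at points 1 to 7. It was 4.08-fold lower in cycloheximide only than in no drug (log2 -2.03, counting SE 0.0872) and 3.88-fold lower in LiCl only (log2 -1.96, counting SE 0.0806). Its overlapping partner YNL276C was also on the list of genes over 2-fold higher in no drug, at 16.4 CPM against at most 4.91 CPM. MET2 was nearly flat along the isobole, with a slope of -0.00093 (edgeR adjusted p = 0.986).

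The 3 enzymes before MET2 also serve threonine synthesis. HOM3 (YER052C), aspartate kinase, was read at 176 CPM in no drug and at 151, 153, 134, 95.8, 72.9, 85.7 and 88.2 CPM at points 1 to 7. HOM2 (YDR158W), the semialdehyde dehydrogenase, gave 59.4 CPM in no drug and 73.2, 83.4, 61.1, 49.0, 45.4, 43.6 and 33.3 CPM. HOM3 was high at points 1 to 3 and low from point 4 on, and HOM2 crossed the no drug level between points 3 and 4. The no drug level of HOM3 was 2.41-fold above that of point 5, its lowest. HOM2 fell with a slope of -0.20 (SE 0.0274, edgeR adjusted p = 0.00142) and HOM3 with a slope of -0.17 (SE 0.0358, edgeR adjusted p = 0.00795). HOM6 (YJR139C), homoserine dehydrogenase, ranged from 263 to 328 CPM along the isobole with 345 CPM in no drug, and its slope of -0.012 did not pass (edgeR adjusted p = 0.717).

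MET6 (YER091C) at chrV:339864-342167 encodes methionine synthase, which methylates homocysteine, and it spanned the widest range of the 40 genes along the isobole. It was read at 1460 CPM in no drug and at 573, 390, 368, 444, 132, 168 and 48.3 CPM at points 1 to 7. The levels fell into a group of points 1 to 4, a lower group of points 5 and 6, and LiCl only below them all. MET6 was 30.3-fold lower in LiCl only than in no drug (log2 -4.92, counting SE 0.0394), the second lowest log2 difference of 6498 genes, and 2.55-fold lower in cycloheximide only (log2 -1.35, counting SE 0.0160). It fell along the isobole with a slope of -0.49 (SE 0.1, edgeR adjusted p = 0.00666), between -0.57 and -0.36 when each library was left out. LiCl only was 11.9-fold below cycloheximide only (log2 -3.57), and 4 genes of 6498 had a lower value in that comparison.

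Of the 3 folate enzymes listed with it, which supply the methyl group, MET13 (YGL125W) also fell along the isobole. MET13, a methylenetetrahydrofolate reductase, was read at 71.8 CPM in no drug and at 37.8, 34.5, 32.8, 30, 19.1, 24.3 and 18.8 CPM at points 1 to 7. It fell along the isobole with a slope of -0.17 (SE 0.0300, edgeR adjusted p = 0.00392), and LiCl only was 2.01-fold below cycloheximide only. MET12 (YPL023C), the second reductase, ranged from 58.6 to 75.6 CPM along the isobole with 78.8 CPM in no drug. MET7 (YOR241W), which adds glutamate tails to folates, ranged from 38.0 to 50.5 CPM with 39.1 CPM in no drug, inside its range. Neither MET12 nor MET7 passed the slope threshold (edgeR adjusted p = 0.292 and 0.0691).

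Transsulfuration joins homocysteine and cysteine through cystathionine, and its 4 enzymes differed widely in their distance from no drug. STR3 (YGL184C) at chrVII:154615-156012 encodes cystathionine beta-lyase, which forms homocysteine from cystathionine, and was read at 358 CPM in no drug and at 24.7, 11.7, 10.6, 13.8, 5.02, 6.66 and 5.88 CPM at points 1 to 7. No drug was 14.5-fold above the highest isobole library and 71.2-fold above the lowest, which held 81 counts. STR3 had the lowest log2 difference of all 6498 genes both in LiCl only, at 60.6-fold below no drug (log2 -5.92, counting SE 0.111), and in cycloheximide only, at 14.5-fold below (log2 -3.85, counting SE 0.0620). Within the isobole it fell with a slope of -0.32 (SE 0.0617, edgeR adjusted p = 0.00508), a call lost without cycloheximide only (adjusted p = 0.052).

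CYS3 (YAL012W) and CYS4 (YGR155W) catalyse the route from homocysteine to cysteine. CYS4, cystathionine beta-synthase, was read at 557 CPM in no drug and at 545, 573, 527, 468, 452, 376 and 224 CPM at points 1 to 7. CYS3, cystathionine gamma-lyase, was read at 276 CPM in no drug and at 180, 177, 147, 139, 137, 124 and 84.5 CPM. With TMM scaling, CYS4 was at the no drug level near cycloheximide only and below it from point 3 on. CYS3 was below no drug at all 7 points, and in each gene LiCl only was the lowest library. With library totals in place of TMM, the CYS4 difference between cycloheximide only and no drug changed sign, so its positions close to no drug depend on the scaling. CYS4 fell with a slope of -0.18 (SE 0.0410, edgeR adjusted p = 0.0103) and CYS3 with a slope of -0.15 (SE 0.0281, edgeR adjusted p = 0.00447). LiCl only was below cycloheximide only by 2.44-fold in CYS4 and 2.13-fold in CYS3.

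The other 2 genes of this group did not pass the slope threshold. STR2 (YJR130C), which makes cystathionine from cysteine, ranged from 20.6 to 26.2 CPM along the isobole with 39.2 CPM in no drug (slope -0.0095, edgeR adjusted p = 0.784). GSH1 (YJL101C), which commits cysteine to glutathione, ranged from 61.6 CPM at point 2 to 113 CPM at LiCl only, with 161 CPM in no drug. Its slope of 0.088 was opposite in sign to those of CYS3 and CYS4 and missed the threshold (edgeR adjusted p = 0.0647).

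All 5 genes that make, use or recycle SAM fell along the isobole, against 15.1% of all genes. Of these 5 calls, only that of SAM1 held when each library was left out in turn. SAM1 (YLR180W), the SAM synthetase with the higher level per length, was read at 592 CPM in no drug and at 434, 412, 345, 323, 232, 243 and 202 CPM at points 1 to 7. Its paralogue SAM2 (YDR502C) was read at 245 CPM in no drug and at 79.6, 68.9, 64.2, 74.5, 53.4, 51.7 and 29.3 CPM. Both stood above the isobole range in no drug and were lowest in LiCl only. SAM2 was 8.37-fold lower in LiCl only than in no drug (log2 -3.06, counting SE 0.0550) and SAM1 2.94-fold lower (log2 -1.55, counting SE 0.0248), and in cycloheximide only the values were 3.08-fold and 1.36-fold. The slopes were both -0.19 to 2 decimals, with an SE of 0.0237 for SAM1 (edgeR adjusted p = 0.00108) and 0.0437 for SAM2 (edgeR adjusted p = 0.0125, 0.0625 without LiCl only). Reads within the 1.8% of each gene that is shared with other CDS were counted at every match.

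SAH1 (YER043C) clears S-adenosylhomocysteine, the product of methylation, to homocysteine. It was read at 520 CPM in no drug and at 421, 451, 404, 346, 361, 351 and 288 CPM at points 1 to 7. Levels were higher at points 1 to 3 than at points 4 to 7, and no drug stood above them all, though not with library totals in place of TMM. SAH1 fell with a slope of -0.088 (SE 0.0236, edgeR adjusted p = 0.0201), a call lost without point 2 or LiCl only (adjusted p between 0.0528 and 0.13).

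SAM4 (YPL273W) and MHT1 (YLL062C) methylate homocysteine with SAM and with S-methylmethionine. SAM4 was read at 79.2 CPM in no drug and at 116, 98.9, 90.4, 66.6, 69.8, 69.7 and 73.3 CPM at points 1 to 7. MHT1 was read at 31.3 CPM in no drug and at 8.33, 7.34, 6.79, 8.87, 4.21, 3.52 and 3.48 CPM. The pair differed against no drug, since SAM4 lay on both sides of it and MHT1 was below it at every point, by 8.97-fold in LiCl only (log2 -3.16, counting SE 0.158). Both fell along the isobole, with slopes of -0.12 for SAM4 (SE 0.0291, edgeR adjusted p = 0.0146) and -0.23 for MHT1 (SE 0.0542, edgeR adjusted p = 0.0133). The SAM4 call was lost without cycloheximide only (adjusted p = 0.0871) and the MHT1 call without LiCl only (adjusted p = 0.0867).

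The permeases of methionine, SAM and S-methylmethionine, which bring in organic sulfur, were lower at every isobole point than in no drug. MUP1 (YGR055W), the high-affinity methionine permease, was read at 344 CPM in no drug and at 113, 90.9, 76.0, 94.8, 60.7, 52.2 and 33.3 CPM at points 1 to 7. SAM3 (YPL274W), the SAM permease, gave 116 CPM in no drug and 34.8, 29.9, 22.9, 25.1, 20.3, 22.9 and 22.4 CPM. MMP1 (YLL061W), the S-methylmethionine permease, gave 55.6 CPM in no drug and 20.9, 31.4, 26, 30.8, 14.1, 13.2 and 13.1 CPM. No drug lay above every isobole library in all 3, MUP1 was lowest in LiCl only, and MMP1 fell into a higher set at points 2 to 4 and a lower set at points 5 to 7.

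MUP1 was 10.3-fold lower in LiCl only than in no drug (log2 -3.37, counting SE 0.0505) and 3.04-fold lower in cycloheximide only (log2 -1.60, counting SE 0.0347). SAM3 was 5.15-fold and 3.32-fold lower in these comparisons, and MMP1 4.24-fold and 2.66-fold lower. MUP1 fell along the isobole with a slope of -0.25 (SE 0.0421, edgeR adjusted p = 0.00298), a call that held in every fit without 1 library. SAM3 fell with a slope of -0.10 (SE 0.0282, edgeR adjusted p = 0.0246), lost without cycloheximide only (adjusted p = 0.168) and with library totals in place of TMM (adjusted p = 0.061). MMP1 fell with a slope of -0.19 (SE 0.0646, edgeR adjusted p = 0.0458), lost without point 2, 3, 5, 6 or LiCl only (adjusted p between 0.0733 and 0.199) and with robust dispersions, an alternative added later (adjusted p = 0.0767). The low-affinity methionine permease MUP3 (YHL036W) ranged from 31.8 to 84.8 CPM, highest in cycloheximide only, with 148 CPM in no drug (slope -0.12, edgeR adjusted p = 0.162).

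The remaining 3 genes handle other sulfur sources and were not 2-fold from no drug at either end of the isobole. BDS1 (YOL164W), a sulfatase, was read at 14.5 CPM in no drug and at 11.3, 12.2, 11.7, 10.5, 12.5, 15.9 and 19.5 CPM at points 1 to 7. It was thus higher than no drug at points 6 and 7 and lower before, and rose along the isobole by 0.12 per point (SE 0.0334, edgeR adjusted p = 0.0229), a call lost without point 6 or LiCl only (adjusted p between 0.0577 and 0.224). YCT1 (YLL055W), the cysteine transporter, ranged from 10.1 to 17.6 CPM along the isobole. Its no drug level of 17.8 CPM was just above that range with TMM, but inside it with library totals. JLP1 (YLL057C), a sulfonate dioxygenase, ranged from 3.46 to 8.04 CPM, above the 3.21 CPM of no drug, on 42 to 154 counts per library. Neither YCT1 nor JLP1 passed the slope threshold (edgeR adjusted p = 0.31 and 0.649).

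**Figure D5:**
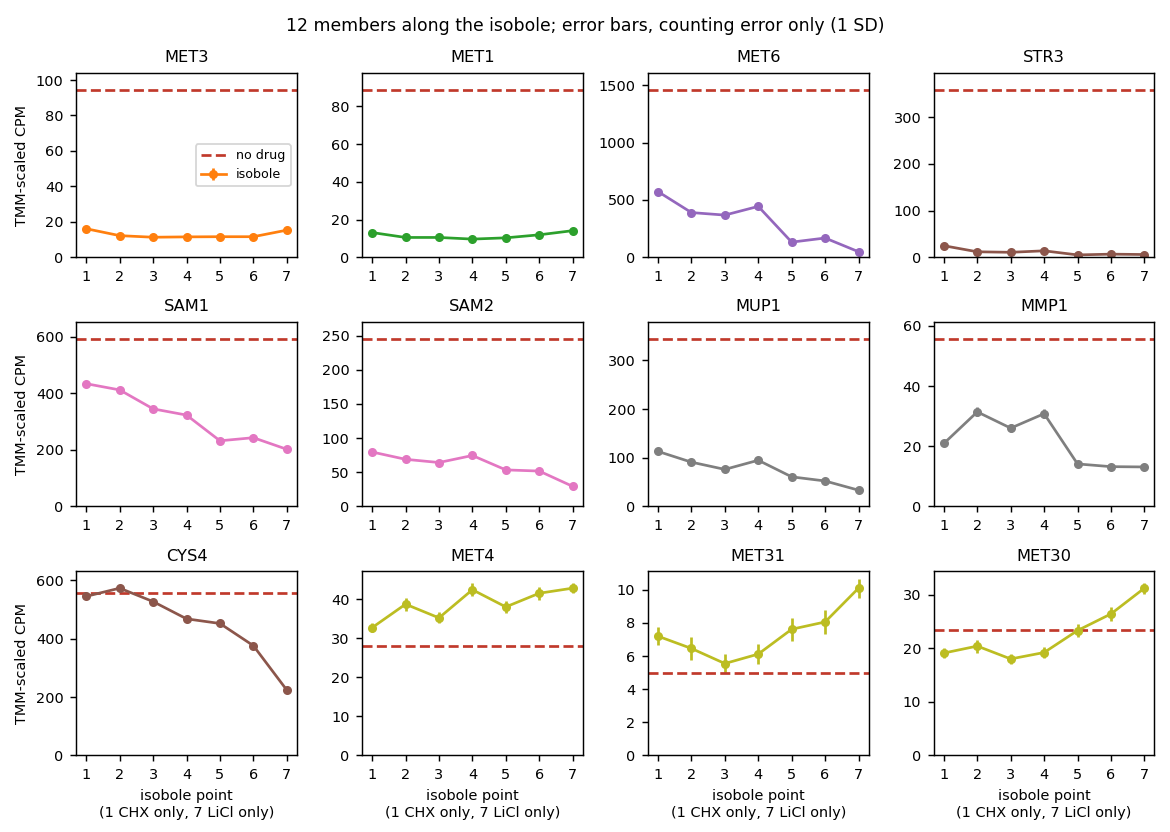
TMM-scaled CPM (y axis, from 0, 1 scale per gene) of 12 members at isobole points 1 to 7 (x axis), with counting error of 1 SD as bars, and the no drug level as a dashed line. MET3 and MET1 are low and nearly flat, MET6 steps down between points 4 and 5, SAM1 and CYS4 decline towards LiCl only, and MET4 and MET31 lie above the dashed line.

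Of the 6 regulators, 2 were higher in no drug than at any isobole point, 3 were lower and 1 lay inside the range. MET28 (YIR017C), a cofactor that steadies Met4 on DNA, was read at 24.4 CPM in no drug and at 4.00, 2.42, 2.77, 2.62, 3.16, 2.62 and 2.61 CPM at points 1 to 7. It was 9.31-fold lower in LiCl only than in no drug (log2 -3.22, counting SE 0.182) and 6.07-fold lower in cycloheximide only (log2 -2.60, counting SE 0.166). YIR017W-A, which overlaps nearly all of it, gave 24.5 CPM in no drug and at most 4.04 CPM along the isobole. MET32 (YDR253C), a zinc finger protein that brings Met4 to DNA, was read at 7.26 CPM in no drug and at 3.40, 3.52, 3.06, 2.62, 2.73, 3.52 and 2.81 CPM. It too lay above all isobole libraries in no drug, on 41 to 95 counts per library.

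The activator and its other DNA-binding partners lay on the other side of no drug. MET4 (YNL103W) was read at 28.0 CPM in no drug and at 32.7, 38.7, 35.2, 42.4, 38.0, 41.5 and 42.8 CPM at points 1 to 7. MET31 (YPL038W), the paralogue of MET32, was read at 4.97 CPM in no drug and at 7.20, 6.46, 5.55, 6.12, 7.62, 8.06 and 10.1 CPM. CBF1 (YJR060W), the E-box binding protein that also acts at centromeres, was read at 11.6 CPM in no drug and at 19.0, 26.6, 20.7, 18.4, 20.5, 20.3 and 12.3 CPM. All 3 were lowest in no drug, with CBF1 in LiCl only close to it.

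In LiCl only, MET31 was 2.03-fold higher than in no drug (log2 1.02, counting SE 0.197) on 303 against 65 raw counts, and MET4 was 1.53-fold higher (log2 0.61, counting SE 0.0855). CBF1 was 1.63-fold higher in cycloheximide only (log2 0.71, counting SE 0.134) and 1.06-fold higher in LiCl only, within counting error. With library totals in place of TMM, all log2 differences from no drug rise by about the same amount (the median of all genes was then 0.34 in each comparison, against 0.022 for LiCl only and 0.044 for cycloheximide only), so the directions of MET4, MET31 and CBF1 did not flip. None of these 5 regulators passed the slope threshold, with edgeR adjusted p between 0.0819 for MET31 and 0.541 for MET32.

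MET30 (YIL046W), the subunit of the ubiquitin ligase that recognises Met4, was read at 23.4 CPM in no drug and at 19.1, 20.4, 18.0, 19.2, 23.3, 26.4 and 31.2 CPM at points 1 to 7. With TMM scaling, it was below no drug up to point 4, level with it at point 5 and above it at points 6 and 7. With library totals in place of TMM, its difference between cycloheximide only and no drug changed sign. MET30 rose along the isobole by 0.12 per point (SE 0.0270, edgeR adjusted p = 0.0109), a call lost without LiCl only (adjusted p = 0.109).

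With growth inhibition matched, the end points of the isobole could be set against each other. In LiCl only, 10 members (25%) were more than 2-fold below cycloheximide only, against 7.17% of genes, and 0 were more than 2-fold above, against 5.99%. They were HOM2, MET6, MET13, CYS3, CYS4, STR3, SAM1, SAM2, MHT1 and MUP1. The median log2 difference was -0.49 over the members and 0.016 over all genes. By role, 3 of 5 transsulfuration and glutathione genes and 3 of 5 SAM genes were past 2-fold, and 0 of 5 sulfate assimilation genes, whose log2 differences lay between -0.89 and -0.075.

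The step between points 4 and 5 was looked at after it had been seen in the values. At point 5, 8 members (20%) were more than 1.5-fold below point 4, against 5.71% of genes. MET6 led them at 3.37-fold, followed by STR3 at 2.75-fold, MMP1 at 2.17-fold, MHT1 at 2.10-fold and JLP1 at 2.05-fold, with MET16, MET13 and MUP1 at 1.63-fold, 1.57-fold and 1.56-fold. Each point is 1 culture, so this step has no replicate check.

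Departures from a straight line were tested by the square of the centred point. By edgeR, 0 members passed (against 1.15% of 6524 genes). At an unadjusted edgeR p under 0.05 stood 13 of 40 members, against 1382 of 6498 genes. By limma-voom 1 member passed, MET14 (adjusted p = 0.0467), against 157 of all genes. By DESeq2 2 members passed, MET14 and CYS4 (adjusted p = 0.0171 for each), against 286 of all genes. The MET14 term was positive, meaning higher levels at the ends than in the middle, at 0.0924 (SE 0.0210, edgeR adjusted p = 0.0625), and the CYS4 term was negative at -0.0547 (SE 0.0142, edgeR adjusted p = 0.084). Without point 2, 3 members passed by edgeR, MET3, MET14 and MUP3 (adjusted p between 0.0394 and 0.0493), against 237 of all genes.

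Per kilobase of CDS, MET6 had the highest level of the 40 genes in no drug, at 635 CPM per kb, followed by SAM1 at 516, SAH1 at 385, CYS4 at 365, HOM6 at 320 and STR3 at 256 CPM per kb. In LiCl only the order per kb began with HOM6 at 269, SAH1 at 213, SAM1 at 176 and CYS4 at 147 CPM per kb. MET6 was then at rank 15 with 20.9 CPM per kb and STR3 at rank 38 with 4.21 CPM per kb. The lowest level per kb in no drug was that of JLP1, at 2.59 CPM per kb.

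Genes next to the pathway were counted in the same way. The 29 neighbouring genes were of folate, polyamine, methionine salvage, glutathione, thioredoxin and threonine metabolism and of the Met30 ligase. Along the isobole, 8 fell (27.6%, against 15.1% of all genes) and 1 rose, against 16.5% of all genes. No drug lay above all 7 isobole libraries for 11 (37.9%, against 24.6% of all genes). LiCl only was more than 2-fold below no drug for 5 of the 29 (17.2%, against 6.43% of all genes). It was more than 2-fold above for 1, SPE2 at 2.18-fold, against 11.6% of all genes. The 5 one-carbon genes included SHM2, the cytosolic serine hydroxymethyltransferase, at 947 CPM in no drug, 1030 CPM in cycloheximide only and 292 CPM in LiCl only (slope -0.30, edgeR adjusted p = 0.00835). MIS1, the mitochondrial counterpart of ADE3, was the neighbour that rose, with a slope of 0.12 (edgeR adjusted p = 0.0163). DUG3, which degrades glutathione, was the neighbour over 2-fold higher in no drug than in all isobole libraries, at 32.1 CPM against at most 14.3 CPM.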

How the data were processed

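Total RNA was ribodepleted and sequenced by the authors as single-end reads of 50 bases, in 8 libraries of 8 conditions. The deposited values are raw counts per CDS, made by the authors with TopHat alignment to build R64 and featureCounts 1.6.2 per the file headers, with multi-mapping and overlapping reads counted at every feature and no strand setting. Introns were counted in separate tables, not used here for values. Totals were 13693401 to 28042336 counts per library.

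Groups followed the labels. The slope and curvature tests used edgeR 4.0.16 (R 4.3.3) on the 7 isobole libraries: filterByExpr, TMM over the filtered genes of those libraries, quasi-likelihood test on the point number, Benjamini-Hochberg over all genes, threshold 0.05. p-values measure spread around a line over single cultures. CPM used TMM over all 8 libraries. Folds between 2 libraries used a pseudocount of 0.5 counts and SEs from counts, which cover counting error only. Alternatives were DESeq2 1.42.0, limma 3.58.1, other scalings, filters, cutoffs and left-out libraries. Scripts were tested on simulated data. Upstream windows were searched in RefSeq R64 with Python 3.11.15, and figures drawn with matplotlib 3.10.9.

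The members and lists were chosen with earlier results of these data known. Every library is given for members past the slope or curvature threshold or past 4-fold against no drug in LiCl only or cycloheximide only, and for the 6 regulators. The others are given by range. Concentrations were not used.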

Additional observations from a re-analysis of the deposited data

How the results depend on the processing

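No called result changed direction. Among uncalled differences from no drug, library totals in place of TMM changed the sign for SUL1, HOM6, MET7, SAM4 and YCT1 in LiCl only and for HOM3, HOM6, MET12, CYS4 and MET30 in cycloheximide only. The count of falling members (17) was between 15 and 17 under other scalings, filters and tools, and between 13 and 18 when each isobole library was left out. The count of rising members (3) was between 0 and 4 when each was left out. With the 5 mixtures only, a fit with fewer libraries, 0 members fell and 0 rose, and 15 of all genes fell. For the curvature, members with ends above the middle numbered 1 by limma-voom, 1 by DESeq2 and between 0 and 3 with libraries left out, and members with ends below the middle numbered 1 by DESeq2. Against no drug, scaling by total counts moved the median log2 difference of the members from -1.34 to -1.02 in LiCl only and from -0.87 to -0.57 in cycloheximide only, while the median of all genes moved to 0.34 in each. The gap of the members to all genes stayed at -1.37 and -0.92. In LiCl only, 1 member was higher than no drug past 2-fold, 0 with DESeq2 size factors or a pseudocount of 5, 3 past 1.5-fold (23% of genes) and 0 past 4-fold (2.82%), and 13 were lower past 4-fold (0.8%). In cycloheximide only, 1 member was higher with total counts (11.3% of genes) or past 1.5-fold (14.6%), and 7 were lower past 4-fold (0.231%). LiCl only against cycloheximide only gave 19 members lower and 5 higher past 1.5-fold, against 16.3% and 17.7% of genes, and 2 lower past 4-fold, against 0.677%. Over all genes, 75 had a curvature by edgeR, 157 by limma-voom, 286 by DESeq2, 237 by edgeR without point 2 and 0 by edgeR without point 1.

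No paired analysis was possible because the labels give no replicate numbers and each condition has 1 library. Differences between cultures or libraries of 1 condition were not tested. Low counts limit MET8, MET28, MET32 and JLP1. Counts were also as low as 55 in MHT1, 65 in MET31 and 77 in MET16.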

Other observations

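The list of genes whose no drug level was over 2-fold above all 7 isobole libraries held 27 genes that are not members. The 5 named here were picked after its values were seen and stand for no group. MXR1, which reduces methionine sulfoxide in proteins and free methionine, was read at 78.7 CPM in no drug and at most 26.6 CPM along the isobole. OPI3, a phospholipid methyltransferase that uses SAM, was read at 50.9 CPM against at most 23.3 CPM, and the arginine gene ARG4 at 159 CPM against at most 75.1 CPM. YIR017W-A and YNL276C, which overlap MET28 and MET2, were on the list at 6.07-fold and 3.35-fold.

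Among the 17 members on that list, CACGTG or AAACTGTGG was found within 500 bases before the start for 15 (88.2%), with STR3 and SAM3 as the exceptions, and among the other 23 members for 12 (52.2%). In the window of 250 bases, the counts were 6 of 17 (35.3%) and 9 of 23 (39.1%), so the order of the shares turned with the window. Among members that fell along the isobole, either motif was found within 500 bases for 12 of 17 (70.6%), and among the others for 15 of 23 (65.2%).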
